A study of Mus musculus with 10 samples.

Results

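Mitochondrial fusion and fission genes were examined in interscapular brown adipose tissue (iBAT) of Axl KO and WT mice on high-fat diet (HFD). The 10 genes were chosen by name as the core machinery that joins and divides mitochondria, and the rule uses no value measured in these mice, although earlier results of these data were known when they were chosen. They are Mfn1, Mfn2 and Opa1 for fusion, Oma1 and Yme1l1 for OPA1 processing, Dnm1l for fission, and Fis1, Mff, Mief1 and Mief2 for DRP1 recruitment. All 10 were found among the 41249 gene identifiers of the deposited tables, and all 10 passed the filter on low counts, which left 13739 genes.

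Mitochondria form a network that is remodelled by opposing fusion and fission. The outer membranes are joined by the GTPases mitofusin 1 and mitofusin 2, and the inner membranes by OPA1, a dynamin-like GTPase that also shapes cristae. OPA1 is cut by the inner membrane proteases OMA1, which responds to stress and loss of membrane potential, and YME1L. Division is carried out by DRP1, the product of Dnm1l, a cytosolic dynamin that is brought to the outer membrane by adaptor proteins. In brown adipocytes, adrenergic stimulation is known to be accompanied by fragmentation of mitochondria, and MFN2 is known to take part in contacts between mitochondria and lipid droplets.

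The mice were male Axl KO animals, with a whole-body constitutive knockout, and WT littermates, 5 of each on a C57BL/6 background. The knockout allele is a gene-trap cassette in an intron of Axl, and it acts in every cell type, so an effect of the brown adipocytes themselves cannot be told apart from one of other tissues. All mice were kept at room temperature and received HFD for 24 weeks from an age of 6 to 8 weeks according to the sample records. A figure legend of the study names another duration, and its methods another starting age. No chow-fed group was analysed here. Whole depots were used, and each library is 1 mouse, so the spread between samples is a spread between animals. The tables hold the number of reads on each gene. They do not show splice forms, and neither OPA1 cleavage nor DRP1 phosphorylation can be read from them.

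The total count was between 5431014 and 9580215 per mouse, and the members had between 75 counts (Oma1) and 4786 counts (Mfn2) in a single mouse. Axl, the disrupted gene, was at 1.57 ± 0.647 CPM in Axl KO mice, against 43.1 ± 5.90 CPM in WT mice (SD, n = 5 each, normalized counts scaled to the library with TMM), with no overlap. The tissue label was checked with 14 brown adipocyte markers, all of which were detected in every mouse, with a mean of 4838 CPM for Ucp1. Skeletal muscle markers were also detected. Their summed level ranged from 8.60 to 3806 CPM in Axl KO and from 875 to 4318 CPM in WT mice, with Axl KO replicates 1 and 2 the lowest, at 31.1 and 8.60 CPM. The summed lymphocyte markers were at or below 1.39 CPM in all mice.

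The 250 bases before the annotated starts of the members were searched in RefSeq sequences of GRCm38.p6 for 4 motifs of factors known to act on mitochondrial genes. All 10 members were matched by symbol. The motifs were chosen after the promoters had been seen, and both strands were read. The ETS/GABP motif CCGGAAG was found before 4 members, and 15.7% of the 9855 tested genes that matched the table and 7.83% of all 27025 genes in it also hold it. The windows are printed because they show which members share these letters at a short distance from the start. Each is written on the strand of the gene, with the motif in capitals.

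Mfn1 (chr3:32529422-32529460, plus strand): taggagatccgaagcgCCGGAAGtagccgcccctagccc

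Yme1l1 (chr2:23156416-23156454, plus strand): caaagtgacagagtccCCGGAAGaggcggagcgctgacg

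Yme1l1, nearer the start (chr2:23156470-23156504, plus strand): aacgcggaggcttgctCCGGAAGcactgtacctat

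Fis1 (chr5:136953241-136953274, plus strand): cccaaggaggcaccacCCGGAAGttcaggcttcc

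Mief1 (chr15:80233999-80234037, plus strand): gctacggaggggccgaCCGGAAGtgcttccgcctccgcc

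Opa1 (chr16:29579259-29579299, plus strand): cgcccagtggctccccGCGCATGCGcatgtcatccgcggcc

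The motif began 44 bases before the start of Mfn1, 73 and 19 before that of Yme1l1, 18 before that of Fis1 and 65 before that of Mief1. The Opa1 window instead holds the NRF1 core GCGCATGCG, 59 bases before the start, a motif that overlaps its own reverse complement by all but 1 base and was present in 3.49% of the matched tested genes. The CRE TGACGTCA and the ERR element TCAAGGTCA were in 0 of the 10 windows, against 3.04% and 0.294% of the matched tested genes. Members with the motif stand on both sides of zero in the comparison of genotypes below, with Mfn1 and Yme1l1 lower and Fis1 and Mief1 higher in Axl KO mice, none of them past the test. The starts are those of the RefSeq table. GENCODE M21 places the starts of Mfn1, Yme1l1 and Mief1 farther upstream, so the distances given above do not hold from those starts. The windows of Yme1l1 and Mief1 lie within or across the annotated gene there, and that of Mfn1 ends before it. A match describes letters and not a bound site.

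In the comparison of Axl KO with WT mice, which asks whether RNA levels of the machinery in iBAT differ where AXL is lost, no member passed the test. The log2 fold changes lay between −0.094 (Mfn1) and 0.094 (Fis1), with a median of −0.038 against −0.00078 over all tested genes. By the quasi-likelihood test of edgeR, adjusted over all tested genes by Benjamini-Hochberg, 0 of 10 members had an adjusted p under 0.05, against 0.00728% of all genes, which is Axl alone. At an unadjusted p under 0.05 there were likewise 0 of 10, against 8.38% of all genes. DESeq2 also gave 0 of 10 members by either p. Over all 13739 tested genes it gave 9 by the adjusted and 952 by the unadjusted p. Values of Axl KO and WT mice overlapped for all 10 members, and they did not overlap for 1.37% of all genes. In these whole depots, fewer cells of a type and less RNA per cell cannot be told apart.

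**Figure D1:**
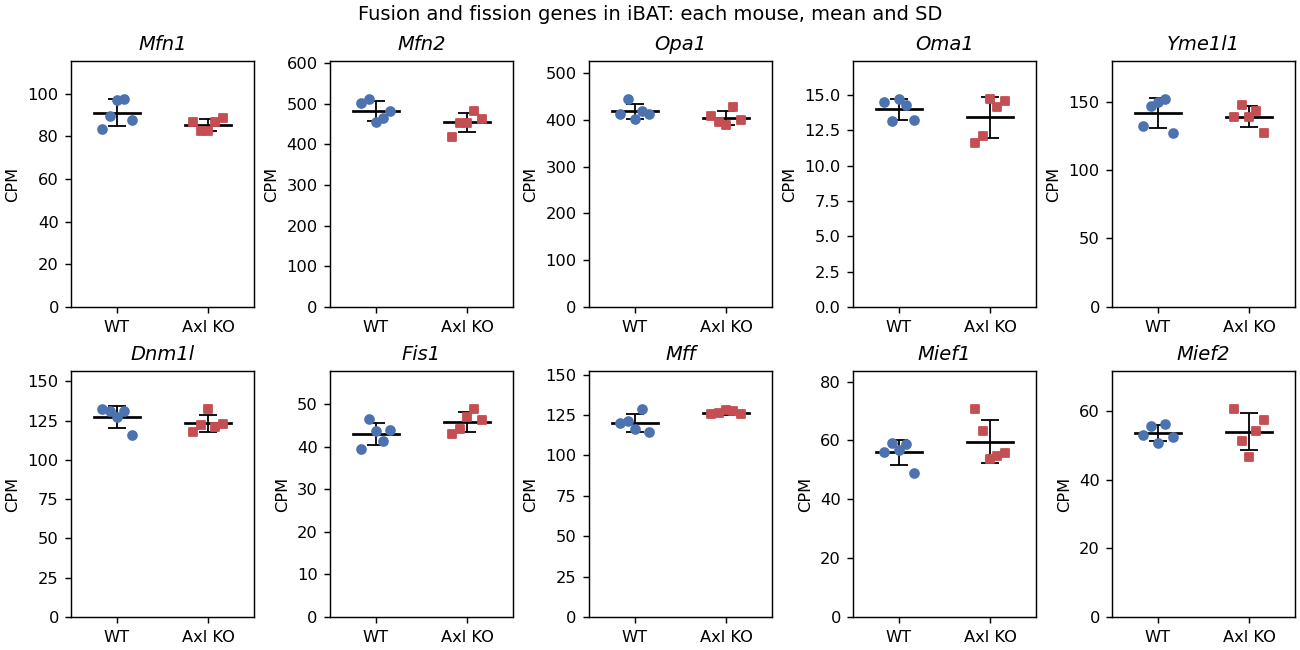
Normalized count (CPM, axis from 0) of each of the 10 genes in WT mice (circles) and Axl KO mice (squares), 1 point per mouse, with the mean and SD as lines (n = 5 per genotype). The genotypes overlap in all 10 panels, and the Axl KO mice of Mff lie within 125 to 128 CPM.

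The mitofusins were the fusion genes with the lowest Axl KO values relative to WT. Mfn2 (GRCm38 chromosome 4, 147873599 to 147904704, minus strand) was at 418, 453, 452, 483 and 462 CPM in Axl KO replicates 1 to 5. In WT replicates 1 to 5 it was at 502, 512, 455, 464 and 481 CPM. Of the Axl KO mice, 3 lay below every WT mouse, and the other 2 lay within the WT range. The means were 454 ± 23.5 and 483 ± 24.4 CPM (SD, n = 5 each). The log2 fold change was −0.090 (standard error 0.058, edgeR adjusted p = 0.678), and the 95% interval of the difference ran from −13.9 to 2.59%.

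Mfn1, on chromosome 3 from 32529465 to 32579239, encodes the other mitofusin. It was at 86.4, 82.5, 82.2, 86.9 and 88.6 CPM in Axl KO replicates 1 to 5 and at 83.5, 89.7, 97.1, 97.6 and 87.5 CPM in WT replicates 1 to 5. The WT mice spread over a wider range, and WT replicates 3 and 4 were the highest of all 10 mice. Its log2 fold change of −0.094 (standard error 0.060) had the lowest edgeR p of the members, 0.138, with an adjusted p of 0.669. The interval of the difference was −14.4 to 2.45%.

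Opa1, on chromosome 16 from 29579334 to 29654884, was at 409, 396, 388, 428 and 399 CPM in Axl KO replicates 1 to 5. The WT mice were at 413, 445, 401, 418 and 412 CPM. Axl KO replicates 2, 3 and 5 lay just below the lowest WT mouse. The log2 fold change was −0.049 (standard error 0.053, edgeR adjusted p = 0.813), and the interval, −10.7 to 4.64%, leaves out a decrease of Opa1 RNA larger than 10.7% at the 95% level.

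Of the OPA1 proteases, Yme1l1 (chromosome 2, 23156369 to 23199260) ranged from 127 to 147 CPM in Axl KO and from 127 to 152 CPM in WT mice. Its log2 fold change of −0.028 (interval −0.17 to 0.11) turned to 0.0029 without WT replicate 4. Oma1 (chromosome 4, 103313812 to 103371868) had the fewest reads of the members. It was at 11.6, 12.1, 14.7, 14.1 and 14.6 CPM in Axl KO replicates 1 to 5 and at 14.5, 13.2, 14.7, 14.3 and 13.2 CPM in WT replicates 1 to 5. Axl KO replicates 1 and 2, the mice with the least skeletal muscle RNA, were the lowest, and the other Axl KO mice lay within the WT range. The log2 fold change of Oma1 was −0.058 (interval −0.26 to 0.15) and turned to 0.073 with the skeletal muscle markers as a covariate.

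Dnm1l (chromosome 16, 16312230 to 16358959, minus strand) was at 118, 122, 132, 121 and 123 CPM in Axl KO replicates 1 to 5. The WT mice were at 133, 131, 127, 131 and 116 CPM. The Axl KO mice lay within the range of the WT mice, and WT replicate 5 was the lowest of all. The log2 fold change was −0.049 (standard error 0.057, edgeR adjusted p = 0.823), with an interval of −0.17 to 0.073. An antisense gene, Gm49521, shares 243 exonic nucleotides with Dnm1l and is not among the genes of the deposited tables. The strand setting of the counting is not given in the sources used here. Any reads of Gm49521 in the shared stretch therefore cannot be told apart from those of Dnm1l.

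The genes of the DRP1 receptors and adaptors all had positive log2 fold changes, none past the test. MFF is the tail-anchored receptor to which DRP1 is known to bind in mammals. Mff (chromosome 1, 82724890 to 82752394) was at 126, 126, 128, 128 and 125 CPM in Axl KO replicates 1 to 5 and at 120, 122, 116, 129 and 115 CPM in WT replicates 1 to 5. All Axl KO mice stood above 4 of the WT mice, and the highest value came from WT replicate 4. The log2 fold change was 0.073 (standard error 0.050, edgeR adjusted p = 0.691), with an interval of −2.41 to 13.4%. Mff was the member with the lowest p in a two-sided exact permutation test of 5 against 5 mice, p = 0.0476, a level reached by 7.77% of all tested genes, and its value adjusted over all genes was 0.613. It shares 195 exonic nucleotides with C430014B12Rik on the other strand, which had 7 to 20 counts per mouse against 671 to 1136 for Mff.

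FIS1 is an outer membrane protein with a debated part in DRP1 recruitment. Fis1 (chromosome 5, 136953275 to 136966234) was at 43.0, 44.2, 47.1, 49.0 and 46.4 CPM in Axl KO replicates 1 to 5 and at 39.5, 46.6, 43.6, 41.4 and 43.9 CPM in WT replicates 1 to 5. Axl KO replicates 3 and 4 were above every WT mouse, and the rest overlapped. The log2 fold change was 0.094 (standard error 0.061, edgeR adjusted p = 0.681), with an interval of −2.69 to 17.0%.

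Mief1 and Mief2 encode MiD51 and MiD49, outer membrane adaptors that bind DRP1. Mief1 (chromosome 15, 80234018 to 80253371) ranged from 53.6 to 70.8 CPM in Axl KO and from 48.9 to 59.3 CPM in WT mice, with Axl KO replicate 1 the highest. Its log2 fold change was 0.089 (interval −0.095 to 0.27) and came to 0.021 without that mouse and to −0.0037 with the skeletal muscle covariate. Mief1 shares 213 exonic nucleotides with the protein-coding gene AC140267.1 on the same strand, which is the whole exon length of AC140267.1. Reads there cannot be told apart between these genes. The deposited counts put AC140267.1 at 3.62 ± 1.04 CPM in Axl KO and 3.49 ± 0.763 CPM in WT mice (SD, n = 5 each). Mief2 (chromosome 11, 60728398 to 60732951) was at 54.0 ± 5.39 CPM in Axl KO and 53.5 ± 2.30 CPM in WT mice (SD, n = 5 each). Its log2 fold change, 0.011, was the nearest to zero of the members.

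**Figure D2:**
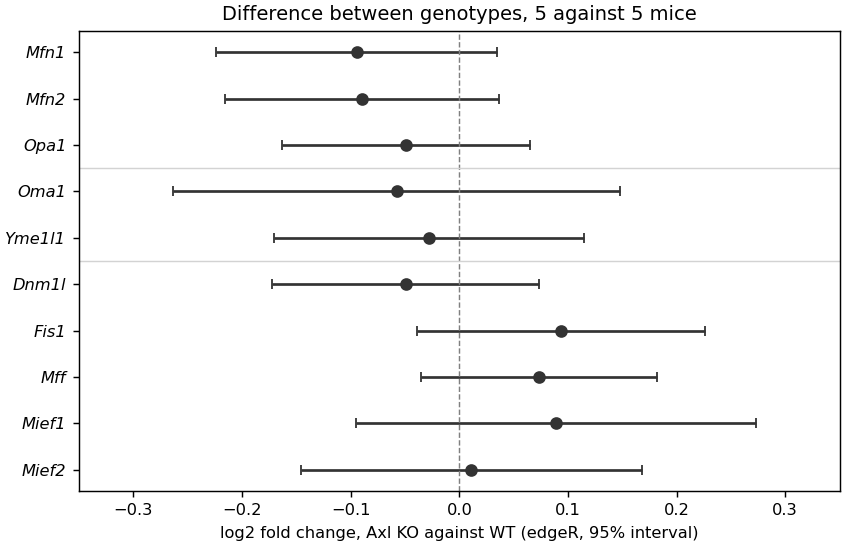
Log2 fold change of each member, Axl KO against WT, from edgeR (points) with 95% intervals (bars), n = 5 mice per genotype. All 10 intervals include zero, with the points between −0.094 for Mfn1 and 0.094 for Fis1.

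By role, the 3 fusion genes, both proteases and Dnm1l had negative log2 fold changes and the 4 DRP1 receptors and adaptors positive ones, with Mief2 and Yme1l1 changing sign in some fits without 1 mouse, and Oma1, Mief1 and Mief2 with the skeletal muscle covariate. The median was −0.090 over the fusion genes and 0.081 over the receptors and adaptors. This is 4 of 10 members above zero, where 49.7% of all tested genes were above zero. The difference between the roles was not tested.

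The spread between mice was compared with that of all tested genes, which include many with far fewer reads, so the shares given here are not particular to the members. The SD of log2(CPM + 0.5) within genotypes was 0.048 for Mff, 0.055 for Opa1, 0.072 for Dnm1l and 0.074 for Mfn2, against a median of 0.18 over all tested genes. Between 64.1% (Mief1) and 99.5% (Mff) of all tested genes had a larger SD than the member. Counting alone gives an SD of 0.049 for Mff, 0.081 for Fis1 and 0.15 for Oma1 on this scale. The spreads between mice of these 3 genes, 0.048, 0.081 and 0.12, were no larger than that. For Mfn2 and Opa1, counting gives 0.025 and 0.027, below the spreads between mice.

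The levels of the genes can be compared only per length, so CPM was divided by the length of all annotated exons of the gene in kb. Mfn2 was the most abundant, at 90.1 ± 5.26 CPM per kb (SD over all 10 mice), followed by Opa1 at 52.2 ± 2.12 CPM per kb. The fission genes Fis1 and Dnm1l came next, at 25.9 ± 1.65 and 24.1 ± 1.22 CPM per kb. Lower levels per kb were found for Mief2 (19.8), Yme1l1 (17.5), Mfn1 (14.4), Mff (12.7), Mief1 (7.13) and Oma1 (6.39). Each gene was compared with the next in this order within mice, by a two-sided exact sign-flip permutation test with Benjamini-Hochberg adjustment over the 9 pairs. The order came from the means of the same mice. The test therefore describes how steady each step was between mice and is not independent support for the order. All 9 steps had an adjusted p under 0.05. Without each mouse in turn, only 7 or 8 of the 9 steps did. Those runs kept the same pairs and had fewer mice. They show fewer steps under the threshold, and the order was not computed anew. The smallest steps were between Fis1 and Dnm1l and between Mief1 and Oma1, each with the first gene higher in 8 of 10 mice (adjusted p = 0.0430 in the exact test). The order depends on the length used: per kb of the longest transcript, Mff stood at rank 5 in place of 8, Mief2 at 7 in place of 5 and Mfn1 at 8 in place of 7, while Mfn2, Opa1, Fis1 and Dnm1l kept ranks 1 to 4.

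**Figure D3:**
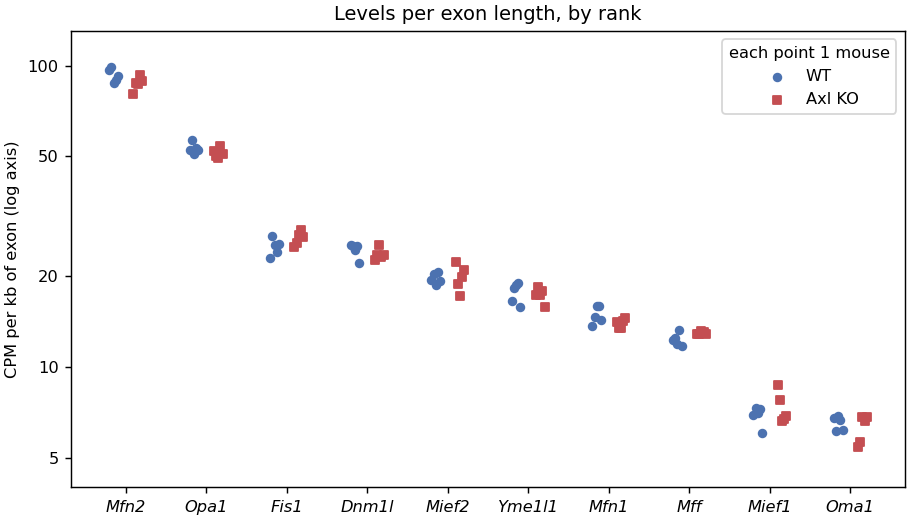
Level of each member in CPM per kb of annotated exon on a log axis, ordered by the mean of 10 mice, with WT mice as circles and Axl KO mice as squares (1 point per mouse). Mfn2, at 90.1, stands highest and Oma1, at 6.39, lowest, and both genotypes show the same order of the first 2 genes.

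Ratios between genes that act together or against each other were computed within each mouse. The ratio of Mfn2 to Mfn1 per kb was 6.26 ± 0.357 in Axl KO and 6.28 ± 0.694 in WT mice (SD, n = 5 each). Opa1 to Dnm1l, a fusion against a fission gene, was at 2.17 ± 0.157 in Axl KO and 2.17 ± 0.127 in WT mice, and Mfn2 to Dnm1l at 3.69 ± 0.221 and 3.80 ± 0.259. Among the receptors and adaptors, Mief2 to Mief1 was at 2.72 ± 0.271 and 2.86 ± 0.198, and Mff to Fis1 at 0.485 ± 0.0219 and 0.493 ± 0.0437 (Axl KO and WT, SD, n = 5 each). Each of these differences between genotypes was smaller than the SD within a genotype.

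Co-variation of the members was computed over the 10 mice as deviations of log2(CPM + 0.5) from the genotype means, for 11 pairs, with exact permutation of mice within genotypes and adjustment over the pairs. The highest value was that of Dnm1l with its receptor Mff (Pearson's r = 0.616, exact permutation p = 0.130, adjusted p = 0.589; Spearman's rho = 0.661, p = 0.0369, adjusted p = 0.406). Without the mice farthest on the x axis, Axl KO replicate 3 and WT replicate 5, r was 0.428. Mief1 and Mief2 had r = 0.572 and rho = 0.406, Mfn2 and Opa1 r = 0.535 and rho = 0.430, and Mfn1 and Mfn2 r = −0.452 and rho = −0.273, each with an adjusted exact permutation p of 0.589 for r and 0.951 for rho. Without the mice farthest on the x axis, r was 0.341, 0.656 and −0.273 for these pairs. None of the 11 pairs had an adjusted p under 0.05. Mfn2 had r = 0.0771 (rho = 0.152, adjusted p = 0.955 and 0.951 in the exact permutation tests) with Ppargc1a, which encodes the coactivator PGC-1α, known to act on Mfn2 with ERRα. With Esrra, the gene of ERRα, Mfn2 had r = 0.0551 (rho = 0.0667, adjusted p = 0.955 and 0.952 in the exact permutation tests). Over all 45 pairs of members, 29 had r above 0 and the median was 0.189.

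Over the same 10 mice, the tested genes with a pattern most like that of Mfn2 were Tcf25 (r = 0.978), Nsfl1c (0.974) and Smpd2 (0.945). For Opa1, AI429214 (0.914) and Atat1 (0.905) are given. For Dnm1l they were Dennd1c (0.970), Gm37879 (0.921) and Mettl6 (0.907). These are the highest of 13739 values each and are given without a test.

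The relation of the members with skeletal muscle markers was computed after the values had been seen. The deviation of Oma1 from its genotype means was correlated with that of the mean log2(CPM + 0.5) of the 14 skeletal muscle markers, with Pearson's r = 0.951 (exact permutation p = 0.00264, adjusted p = 0.0264 over the 10 relations computed) and Spearman's rho = 0.952 (p = 0.00229, adjusted p = 0.0229). Without the mice farthest from the median, Axl KO replicates 1 and 2, r was 0.857 (exact permutation p = 0.0194), and without each mouse in turn it was between 0.943 and 0.965. The other 9 members had r between −0.572 (Mief1) and 0.456 (Dnm1l) and rho between −0.564 and 0.479, with adjusted exact permutation p-values of at least 0.574. Yme1l1, the other OPA1 protease, had r = −0.288. Without Axl KO replicates 1 and 2 the sign turned for several of them, with r of 0.401 for Mief1, −0.550 for Mfn2 and −0.706 for Fis1, so these relations rest on those mice. The Oma1 values rest on 75 to 128 counts per mouse, and as given above their spread was no larger than counting alone gives. The part of the skeletal muscle RNA in the Oma1 values was not tested beyond this relation and the covariate fit.

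**Figure D4:**
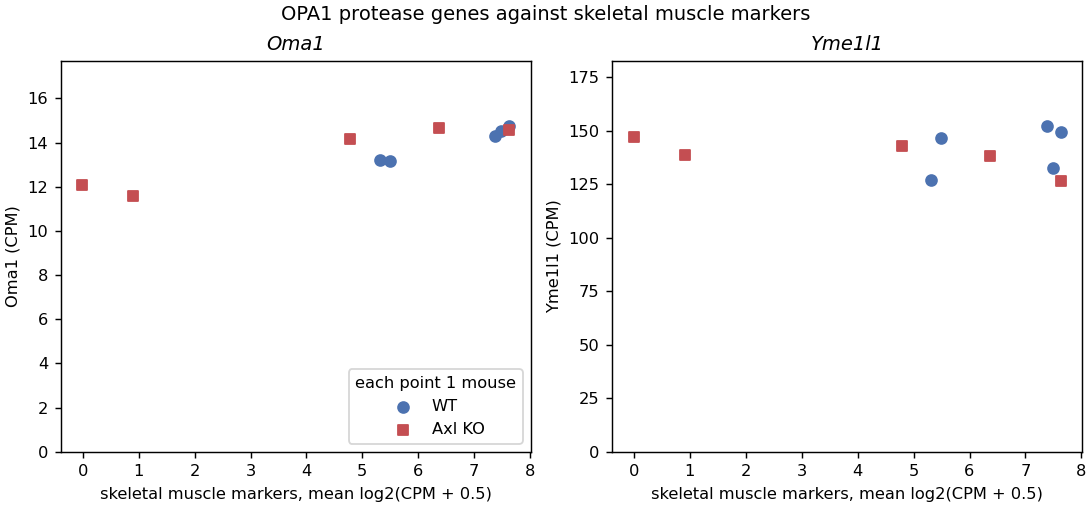
Normalized count (CPM, axis from 0) of the OPA1 protease genes Oma1 and Yme1l1 against the mean log2(CPM + 0.5) of 14 skeletal muscle markers, 1 point per mouse, WT as circles and Axl KO as squares. Oma1 is lowest, at 11.6 and 12.1 CPM, in the Axl KO mice with the lowest muscle markers, while Yme1l1 shows no such order.

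A further 52 genes of mitochondrial dynamics, in 6 groups by role, were read in the same fit, and 50 of them were tested, since the fission factors Mtfr2 and Gdap1 lay below the filter. By edgeR, 0 of the 50 passed after adjustment, and the genotypes overlapped for all 50. DESeq2 gave 0 of the 50 after adjustment and 9 before it. In DESeq2, 952 of 13739 tested genes had an unadjusted p under 0.05. In edgeR, 8 (16%) had an unadjusted p under 0.05, against 8.38% of all tested genes. Of these, 7 (14% of the 50) were higher in Axl KO mice, against 4.52% of all genes, and 1 of the 50 was lower, against 3.86% of all genes. The 7 are Mtch2, Stoml2, March5, 2410015M20Rik, Myo19, Bnip3 and Bnip3l, and the other is Spg7. The median log2 fold change of the 50 was 0.019, against −0.00078 over all tested genes. Above zero were 31 (62%), against 49.7% of all tested genes. The count of 8 was 4 without Axl KO replicate 1, 5 without Axl KO replicate 5, 5 without WT replicate 5, and 5 with the replicate number as a block. Over all tested genes, the count of 1152 fell to 817, 974, 925 and 1050 in these fits. With the skeletal muscle covariate, the counts were 6 and, over all tested genes, 942. Under this covariate Myo19 came to 0.17 and 2410015M20Rik to 0.13 on the log2 scale, neither any longer at an unadjusted p under 0.05. The summed muscle markers are given above for both genotypes, and their part in these values was not tested beyond this fit.

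Among 6 other fusion genes, Mtch2, an outer membrane insertase also tied to fusion, was at 540 ± 37.2 CPM in Axl KO and 477 ± 22.7 CPM in WT mice (SD, n = 5 each; log2 fold change 0.18, edgeR adjusted p = 0.572). Stoml2, a stomatin-like protein of the inner membrane that is needed for stress-induced hyperfusion, was at 87.1 ± 8.04 and 77.3 ± 1.92 CPM (0.17, edgeR adjusted p = 0.572). For both genes, 4 of 5 Axl KO mice lay above every WT mouse. This is read from the same values as their unadjusted p and is not separate support. The mitoguardin gene Miga2 had a log2 fold change of 0.0090, with 241 and 240 CPM in Axl KO and WT mice.

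The 7 other fission genes tested had log2 fold changes between −0.065 and 0.11, with 0 at an unadjusted p under 0.05. Those with the most reads, a measure that is not per length, were Slc25a46, an outer membrane carrier homologue (0.11), and Mtfr1l (0.015). Of the 12 regulators of OPA1 and DRP1, March5, an outer membrane ubiquitin ligase that acts on DRP1 and its receptors, was at 200 ± 14.9 CPM in Axl KO and 180 ± 10.01 CPM in WT mice (log2 fold change 0.15, edgeR adjusted p = 0.572). Spg7, which encodes paraplegin of the m-AAA protease, was at 151 ± 10.3 and 169 ± 12.8 CPM (−0.16, edgeR adjusted p = 0.572). Its partner subunit Afg3l2 had a log2 fold change of 0.058, and Akap1, which anchors protein kinase A at the outer membrane, 0.16 (edgeR adjusted p = 0.678).

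Of the 8 genes of cristae junctions (the MICOS complex and SAMM50), 7 had a log2 fold change above zero, where 49.7% of all tested genes did. The median was 0.058, against −0.00078 over all tested genes. At an unadjusted p under 0.05 there was 1 of the 8 (12.5%), against 8.38% of all tested genes, and 0 passed after adjustment. The gene 2410015M20Rik, which encodes the subunit MIC13, was at 134 ± 10.6 CPM in Axl KO and 118 ± 4.82 CPM in WT mice (SD, n = 5 each; 0.18, edgeR adjusted p = 0.572). The core subunit gene Immt was at 1051 and 1021 CPM (0.043), and Chchd3 at 351 and 325 CPM (0.11, edgeR adjusted p = 0.601).

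Among 8 transport genes, Myo19, a myosin bound to mitochondria, was at 15.6 ± 2.08 CPM in Axl KO and 12.8 ± 1.31 CPM in WT mice (SD, n = 5 each; log2 fold change 0.28, edgeR adjusted p = 0.572). The kinesin gene Kif5b and its adaptor Trak1 had log2 fold changes of −0.0093 and −0.047. Among 9 mitophagy genes, the receptor genes Bnip3 and Bnip3l were at an unadjusted p under 0.05. Bnip3 was at 302 ± 45.1 and 245 ± 18.4 CPM in Axl KO and WT mice (0.30, edgeR adjusted p = 0.572), and Bnip3l at 96.5 ± 4.32 and 85.7 ± 6.67 CPM (0.17, edgeR adjusted p = 0.572). For each, 4 of 5 Axl KO mice lay above every WT mouse, again in the same values that gave the unadjusted p. Pink1, the kinase that marks depolarized mitochondria, had a log2 fold change of −0.12 (edgeR adjusted p = 0.655). The summed brown adipocyte markers were between 10752 and 14298 CPM in Axl KO and between 8661 and 11111 CPM in WT mice, and their part in these values was not tested.

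**Figure D5:**
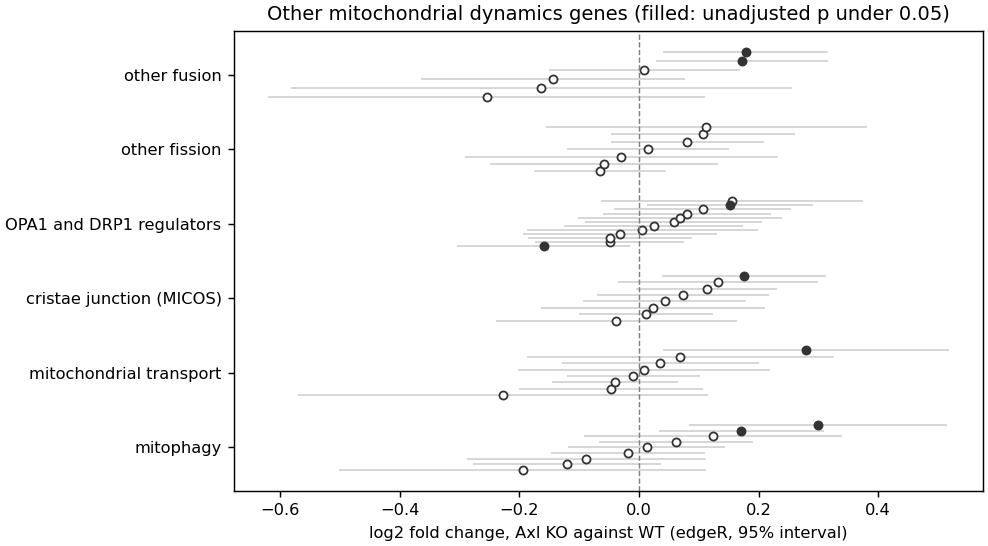
Log2 fold change, Axl KO against WT, from edgeR (points) with 95% intervals (bars) for 50 other mitochondrial dynamics genes in 6 groups, n = 5 mice per genotype. Filled points have an unadjusted p under 0.05, 7 to the right of zero and 1 to the left, and no gene passed after adjustment.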

How the data were processed

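RNA of iBAT from 5 Axl KO and 5 WT mice was sequenced by the study, with 1 library per mouse. The files deposited by the authors hold raw counts per Ensembl gene, 1 file for each mouse, neither normalized nor pooled. The submitters' processing notes name bcl2fastq, Trimmomatic 0.36, STAR 2.6.1c, DESeq2 and GRCm38.p5, whereas the study's methods name Trim Galore and hisat2. The records name polyadenylated RNA and the methods rRNA-depleted RNA. The counting tool and its strand setting are not given in the sources used here, so counts of overlapping genes are uncertain.

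Symbols, positions and exon lengths were taken from GENCODE M21 (GRCm38), in which 41163 of 41249 identifiers were found. Genes with a mean above 1 CPM were compared by genotype alone with the quasi-likelihood test of edgeR 4.0.16 (R 4.3.3), after TMM scaling and with Benjamini-Hochberg adjustment. The procedure was tested on simulated data. The total counts of 5431014 to 9580215 per mouse limit the precision of genes with few reads. No pair of mice had the same library (chi-square per gene at least 5.46). Exact permutation tests of single values were two-sided and written out in R and Python 3.11.15. DESeq2 1.42.0, RLE size factors, other filters, each mouse left out, a replicate block, protein-coding genes alone and a skeletal muscle covariate were alternatives.

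The members and lists were chosen with earlier results of these data known. The genes named are the members, Axl, other mitochondrial dynamics genes with an unadjusted p under 0.05 or among the 2 with the highest CPM, which is not per length, in their group, and the 3 genes most like Mfn2, Opa1 and Dnm1l, of which 1 is not reported here. AC140267.1, C430014B12Rik and Gm49521 were named for their overlap with members, Ppargc1a and Esrra as a chosen pair each with Mfn2, and Mtfr2 and Gdap1 because they were not tested.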

Additional observations from a re-analysis of the deposited data

Results flagged for a closer look

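Of 22 groups of 5 mice examined (the 10 members and Axl, in each genotype), 1 held a mouse that stood far from the others, where chance alone flags about 1 in 20 groups, or 1.1 here. It was Axl in Axl KO replicate 4, at 0.437 CPM, with the nearest mouse at 1.68 CPM, which is 0.791 of the whole range. Only 3 reads were counted in that mouse. No member had such a mouse in either genotype.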

How the results depend on the processing

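No member had an unadjusted p under 0.05 in any of the 17 alternative fits, and 3 to 5 of the 10 were higher in Axl KO mice. Of 170 log2 fold changes of members, 163 kept their direction. DESeq2 called 9 genes in place of 1 over all genes, with 0 members. Without each mouse in turn, edgeR gave 817 to 2026 genes at an unadjusted p under 0.05, the highest without Axl KO replicate 3, and 4 to 11 other mitochondrial dynamics genes. The log2 fold changes ranged from −0.033 to 0.061 for Mief2, from −0.064 to 0.0029 for Yme1l1, from −0.019 to 0.059 for Miga2, from −0.027 to 0.035 for Mtfr1l and from −0.025 to 0.0065 for Kif5b. With the skeletal muscle covariate they were 0.073 for Oma1, −0.0037 for Mief1 and −0.013 for Mief2. The causes were not tested.

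The main fit did not treat same-numbered mice as pairs. Their correlations lay between −0.355 and 0.370, the highest for replicate 2, whose same-numbered WT mouse was also its nearest. Whether the numbers mark a shared litter or processing was not tested. With the replicate block, 1 gene was called, 1050 had an unadjusted p under 0.05, and 5 other mitochondrial dynamics genes did in place of 8.

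Leaving out each mouse moved r from −0.374 to 0.0912 for Oma1 and Yme1l1, from −0.334 to 0.176 for Opa1 and Dnm1l, from −0.213 to 0.200 for Dnm1l and Fis1, from −0.118 to 0.272 for Mfn2 and Ppargc1a and from −0.181 to 0.351 for Mfn2 and Esrra. Without the mice farthest on the x axis, r was 0.0589 for Oma1 and Yme1l1, −0.129 for Opa1 and Yme1l1 and −0.111 for Mfn2 and Ppargc1a. With the muscle markers removed, r was 0.474 for Oma1 and Yme1l1. Depth limits Oma1 most, at 75 to 128 counts per mouse.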
